A study of Arabidopsis thaliana with 6 samples.

Results

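The nuclear-encoded subunits of photosystem I described here are those of the 10 genes PSAD1 (AT4G02770), PSAD2 (AT1G03130), PSAE1 (AT4G28750), PSAE2 (AT2G20260), PSAF (AT1G31330), PSAG (AT1G55670), PSAH1 (AT3G16140), PSAK (AT1G30380), PSAL (AT4G12800) and PSAN (AT5G64040). The genes were taken by their identifiers out of 36917 genes in the files, and all 10 had enough counts to be tested among 17902 genes. Photosystem I is the light-driven oxidoreductase of the thylakoid membrane that takes electrons from plastocyanin in the lumen and passes them to ferredoxin in the stroma. Its reaction-centre core is made in the plastid, whereas most of the small subunits around that core are encoded in the nucleus, translated in the cytosol and imported. Levels were compared between 3 RNA-Seq libraries of wild-type Arabidopsis seedlings of accession Col-0 and 3 libraries of the line amiR1-3-mterf2, which expresses an artificial microRNA against MTERF2, a gene for a chloroplast protein of the mitochondrial transcription termination factor family. Seedlings of both genotypes were 6 days old and had been grown in long days on agar medium with sucrose. The knockdown is represented by 1 transgenic line, made by transformation of Col-0 with a transgene whose promoter is not given in the sources used here, and RNA came from seedlings, so that fewer cells of a type and less RNA per cell cannot be told apart.

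The libraries held 18004935 to 21832003 counts, and the 10 genes together took 82107 to 118173 of them. For MTERF2, the study reports lower transcript levels in its knockdown lines by quantitative RT-PCR. It also reports a reduced MTERF2 level in its RNA-Seq data. The targeted gene MTERF2 (AT2G21710) was covered by 48, 33 and 58 counts in wild-type libraries against 32, 16 and 8 in the line, and its log2 fold change of -1.15 did not pass the threshold (adjusted p = 0.0837, by the quasi-likelihood test of edgeR, adjusted after Benjamini and Hochberg). Without Col-0 replicate 2 it did (adjusted p = 0.0265, with a range of 0.0150 to 0.236 across the alternatives, edgeR or DESeq2). That library stood apart from the other wild-type libraries. Over nuclear genes its mean chi-square per gene was 25.2 against replicate 1 and 24.3 against replicate 3, whereas replicates 1 and 3 differed by 3.03 and the amiR1-3-mterf2 libraries by 3.35 to 3.58. It was also the only library rich in the root-hair markers RHD2, COBL9 and EXPA7, with 92, 176 and 69 counts against at most 3, 12 and 0 counts in the other 5 libraries. The summed level of all 7 root markers was 47.4 CPM (counts scaled to library size with TMM factors) in that library, 20.4 and 26.3 in the other Col-0 libraries and 9.53 to 10.9 in amiR1-3-mterf2. EXPA7 and NRT2.1 were at 0 in all 3 amiR1-3-mterf2 libraries, but EXPA7 was also at 0 in Col-0 replicates 1 and 3, and NRT2.1 had only 6, 3 and 2 counts in Col-0. Of the 4 root markers tested, 2 were called lower, CASP1 (log2 fold change -1.55) and COBL9 (-6.39). Without Col-0 replicate 2 they were at -1.44 and -3.64, and both calls stayed. The 6 green-tissue markers were present in every library and summed to 6782 and 6908 CPM in Col-0 replicates 1 and 3, 13049.5 in Col-0 replicate 2 and 8464 to 8563 in amiR1-3-mterf2. Of these 6, LHCB2.1 was called lower (log2 fold change -0.94) and 5 did not pass, RCA lying at -0.29, CA1 at -0.26, RBCS1A at 0.07, GAPB at 0.36 and LHCB1.2 at 0.50. Without Col-0 replicate 2, 4 were higher (RBCS1A, CA1, LHCB1.2 and GAPB) and 2 lower (LHCB2.1 and RCA). The 3 seed markers summed to 6.82 to 8.28 CPM in Col-0 and 15.04 to 17.5 CPM in amiR1-3-mterf2, with 2 of 3 called higher, and the 2 guard-cell markers to 17.8 to 20.5 and 12.1 to 13.8 CPM, with 1 called lower. The part of these differences in the results below was not tested. Calls and signs of photosystem I genes that changed without Col-0 replicate 2 are given with and without it.

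PSAD, PSAE and PSAH are each encoded by a pair of similar genes, so that the balance within a pair depends on how well the reads separate the copies. The coding sequences were 88.0% identical for PSAD1 and PSAD2, 79.5% for PSAE1 and PSAE2, and 87.0% for PSAH1 and PSAH2 (AT1G52230), the last of which is not among the 10 genes. The longest run of identical coding bases was 35, 22 and 30 for the PSAD, PSAE and PSAH pairs. Shown here are the 150 coding bases, the length of 1 read, in which the copies are most alike, read 5′ to 3′ from TAIR10.1, with capitals where the copies differ. For PSAD1 (minus strand, chr4:1229292-1229441) and PSAD2 (minus strand, chr1:753573-753722) they differed at 11 positions.
PSAD1: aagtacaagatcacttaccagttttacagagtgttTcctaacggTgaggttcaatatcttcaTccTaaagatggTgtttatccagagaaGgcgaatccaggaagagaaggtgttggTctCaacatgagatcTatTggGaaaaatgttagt
PSAD2: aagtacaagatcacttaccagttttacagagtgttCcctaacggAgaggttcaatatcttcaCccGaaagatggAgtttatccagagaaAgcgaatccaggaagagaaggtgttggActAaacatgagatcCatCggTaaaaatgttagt

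For PSAE1 (minus strand, chr4:14202978-14203633, intron left out) and PSAE2 (plus strand, chr2:8737044-8737620, intron left out) the most similar 150 bases differed at 14 positions.
PSAE1: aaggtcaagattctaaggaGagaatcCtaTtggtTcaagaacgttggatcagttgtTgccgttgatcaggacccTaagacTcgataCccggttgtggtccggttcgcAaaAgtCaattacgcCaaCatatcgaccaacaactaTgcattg
PSAE2: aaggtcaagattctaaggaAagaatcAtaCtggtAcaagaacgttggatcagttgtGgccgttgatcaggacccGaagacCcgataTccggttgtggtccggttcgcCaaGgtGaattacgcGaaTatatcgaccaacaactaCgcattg

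For PSAH1 (minus strand, chr3:5468821-5469060, intron left out) and PSAH2 (plus strand, chr1:19455132-19455357, intron left out) they differed at 13 positions. A read of full length within these coding bases therefore crossed at least 11 differences in any pair, although the treatment of reads with several matches is not given in the sources used here.
PSAH1: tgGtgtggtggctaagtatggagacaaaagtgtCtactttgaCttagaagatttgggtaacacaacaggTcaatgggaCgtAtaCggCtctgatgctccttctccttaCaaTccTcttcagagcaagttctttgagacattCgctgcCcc
PSAH2: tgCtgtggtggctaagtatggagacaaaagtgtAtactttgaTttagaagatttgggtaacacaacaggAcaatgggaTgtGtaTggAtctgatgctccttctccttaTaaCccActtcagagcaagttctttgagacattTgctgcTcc

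At an adjusted p under 0.05, 4 of the 10 genes were lower in amiR1-3-mterf2, 0 were higher and 6 did not pass (edgeR quasi-likelihood, Benjamini-Hochberg over the genes tested). Over all 17902 genes, 18.2% were lower and 18.1% were higher, and scaling by total counts in place of TMM gave 4148 lower and 2129 higher genes in place of 3261 and 3248. The 4 genes that fell were PSAD1, PSAD2, PSAE1 and PSAL, and the fitted falls were 34.2%, 24.4%, 25.1% and 16.7%. No member was higher at an unadjusted p under 0.05 with edgeR, and DESeq2 found 1 such gene but also 0 higher and 4 lower genes after adjustment. Without Col-0 replicate 2, the count of lower genes stayed at 4 (20.8% of 18303 genes tested) and 2 genes, PSAE2 and PSAG, were higher (22.1% of the genes tested). Leaving out amiR1-3-mterf2 replicate 1 or replicate 3 reduced the lower genes to 2, PSAD1 and PSAE1. Lower genes over all also became fewer in these fits, 2528 and 2504 in place of 3261. The 10 genes had a median log2 fold change of -0.08, and all genes tested one of -0.02.

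**Figure D1:**
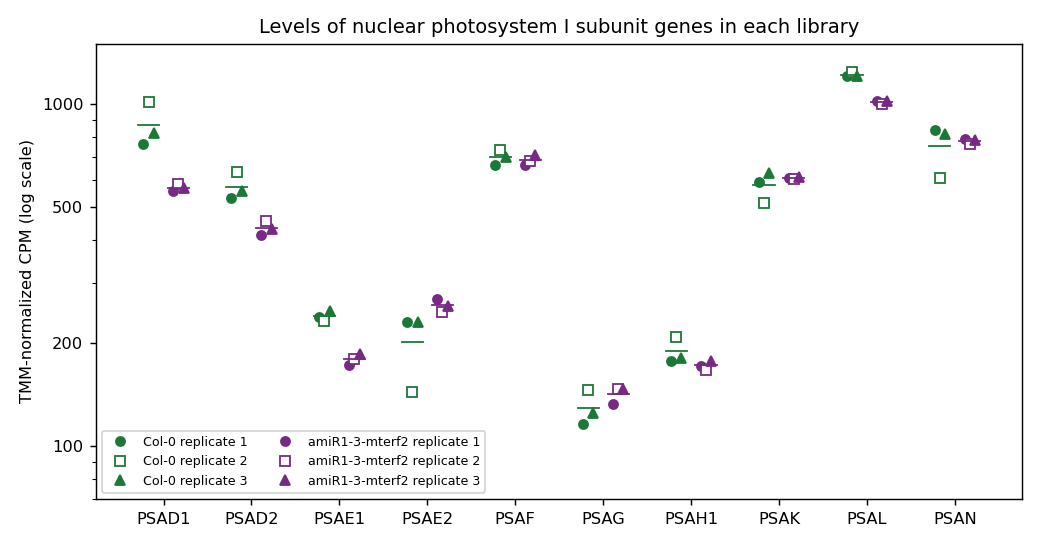
Level of each of the 10 genes in each library, in TMM-normalized CPM on a log axis, for Col-0 (green) and amiR1-3-mterf2 (purple). Points are libraries, open squares are replicate 2 of either genotype, and short lines are group means; PSAD1, PSAD2, PSAE1 and PSAL show purple points below all green points, and the open green square is the lowest point of PSAE2, at 143 CPM.

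PsaD and PsaE sit on the stromal face and form the docking site for ferredoxin, with PsaD also holding the iron-sulfur subunit PsaC in place. The level of PSAD1 was 763, 1013 and 823 CPM in Col-0 replicates 1 to 3 and 556, 584 and 569 CPM in amiR1-3-mterf2. Every amiR1-3-mterf2 library lay below every Col-0 library, and the highest Col-0 value was that of replicate 2. The log2 fold change of PSAD1 was -0.60 (SE 0.117, adjusted p = 0.00212, edgeR quasi-likelihood, Benjamini-Hochberg), and it was -0.47 without Col-0 replicate 2. PSAD2, the other gene for this subunit, had 532, 631 and 557 CPM in Col-0 and 414, 456 and 431 CPM in amiR1-3-mterf2, again without overlap. Its log2 fold change was -0.40 (SE 0.103, adjusted p = 0.0106, edgeR quasi-likelihood, Benjamini-Hochberg). The call for PSAD2 was lost without amiR1-3-mterf2 replicate 1 (adjusted p = 0.0712) or replicate 3 (adjusted p = 0.0559), and over all alternatives the adjusted p ran from 3.56e-06 to 0.0712 (edgeR or DESeq2, Benjamini-Hochberg).

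The PSAE genes, whose product stabilises the bound ferredoxin, had estimates of opposite sign. PSAE1 had 238, 232 and 248 CPM in Col-0 and 172, 179.7 and 186 CPM in amiR1-3-mterf2, so that the genotypes were separated by more than the range within either. Its log2 fold change was -0.42 (SE 0.0955, adjusted p = 0.00573, edgeR quasi-likelihood, Benjamini-Hochberg), and it was the member that Col-0 replicate 2 altered least in the wild type apart from PSAL, at -0.06 on the log2 scale relative to the mean of replicates 1 and 3. PSAE2 had 231, 143 and 231 CPM in Col-0 and 269.9, 247 and 257 CPM in amiR1-3-mterf2. Here all amiR1-3-mterf2 libraries were above all Col-0 libraries, and the Col-0 value of 143 came from replicate 2. The log2 fold change of 0.35 for PSAE2 did not pass the threshold with all libraries (95% interval -0.01 to 0.72, adjusted p = 0.117, edgeR quasi-likelihood, Benjamini-Hochberg). Without Col-0 replicate 2 it was smaller, at 0.16, with a standard error of 0.0512 in place of 0.164, and it passed (adjusted p = 0.0121, with a range of 0.0121 to 0.492 across the alternatives, edgeR or DESeq2, Benjamini-Hochberg).

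PsaF and PsaN lie on the lumenal side, where PsaF docks plastocyanin and PsaN assists this donor reaction. PSAF had 662, 736 and 702 CPM in Col-0 and 663, 682 and 709 CPM in amiR1-3-mterf2, and the ranges overlapped almost fully. The log2 fold change was -0.03, with a 95% interval of -0.24 to 0.18 (adjusted p = 0.825, edgeR quasi-likelihood, Benjamini-Hochberg), which as a fold is 0.847 to 1.13. PSAN had 839.8, 609 and 819.9 CPM in Col-0 and 790.3, 764 and 788 CPM in amiR1-3-mterf2. The low wild-type value was that of replicate 2, and the log2 fold change of 0.05 (95% interval -0.23 to 0.32, adjusted p = 0.803, edgeR quasi-likelihood, Benjamini-Hochberg) turned to -0.08 without it, which did not pass either (adjusted p = 0.0895, with a range of 0.0895 to 0.933 across the alternatives, edgeR or DESeq2, Benjamini-Hochberg). For PSAF the sign also turned without that library, to 0.01.

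PsaG and PsaK are related membrane subunits at the edge of the core where the light-harvesting antenna binds. PSAG had 116, 146 and 125 CPM in Col-0 and 133, 147 and 146 CPM in amiR1-3-mterf2, with the ranges overlapping through Col-0 replicate 2. The log2 fold change of 0.14 did not pass with all libraries (95% interval -0.11 to 0.39, adjusted p = 0.366, edgeR quasi-likelihood, Benjamini-Hochberg). Without that library it was 0.24 and passed (adjusted p = 0.00256, with a range of 0.00256 to 0.97 across the alternatives, edgeR or DESeq2, Benjamini-Hochberg), and with total counts in place of TMM it was -0.01. PSAK had 590.4, 514 and 629.9 CPM in Col-0 and 606, 602 and 614 CPM in amiR1-3-mterf2, and all 3 values of the line fell inside the wild-type range. Its log2 fold change was 0.07 (95% interval -0.16 to 0.30, adjusted p = 0.631, edgeR quasi-likelihood, Benjamini-Hochberg), and -0.0032 without Col-0 replicate 2.

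PsaL and PsaH form the side of the complex at which light-harvesting complex II docks during state transitions. PSAL, the member with the most counts, had 1206, 1241 and 1211 CPM in Col-0 and 1023, 1000.05 and 1022 CPM in amiR1-3-mterf2. The gap between the genotypes was wide against ranges of a few percent within each, and the log2 fold change was -0.26 (SE 0.0885, adjusted p = 0.0373, edgeR quasi-likelihood, Benjamini-Hochberg). Its call was nevertheless near the threshold, since 8 of 13 alternatives lost it with an estimate between -0.27 and -0.24, among them each fit that left out a library other than Col-0 replicate 2. Without Col-0 replicate 2 the adjusted p of PSAL was 5.46e-06, and over all alternatives it ran from 5.46e-06 to 0.137 (edgeR or DESeq2, Benjamini-Hochberg). PSAH1 had 178, 209 and 181 CPM in Col-0 and 172, 167 and 178 CPM in amiR1-3-mterf2, and the nearest values of the genotypes were 177.6 and 177.5. Its log2 fold change of -0.14 did not pass the threshold (95% interval -0.36 to 0.09, adjusted p = 0.341, edgeR quasi-likelihood, Benjamini-Hochberg). Counted by libraries alone, 5 of the 10 genes had all amiR1-3-mterf2 values below all Col-0 values (24.4% of all genes tested), 1 had them above (25% of all genes tested), and 4 overlapped.

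**Figure D2:**
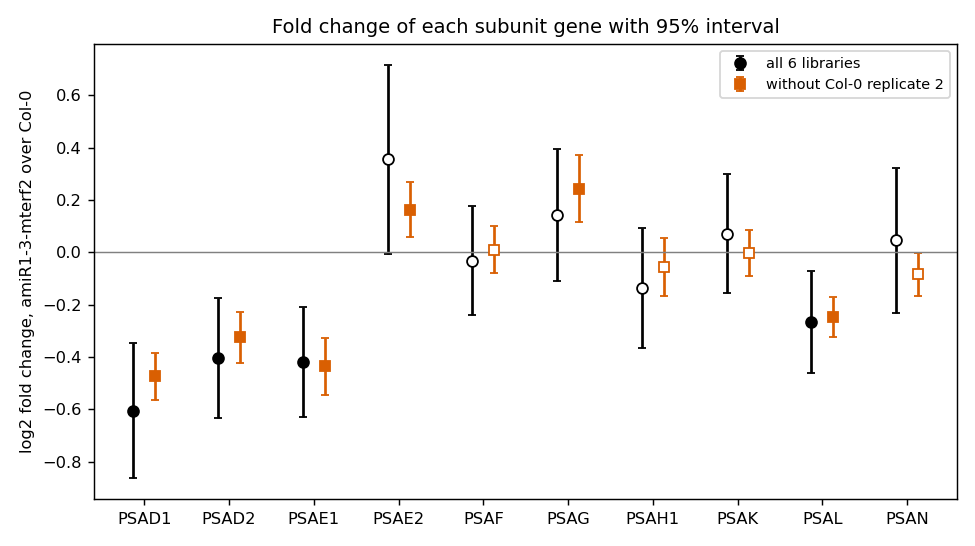
Log2 fold change of amiR1-3-mterf2 over Col-0 for each gene with its 95% interval, from the fit to all 6 libraries (black circles) and without Col-0 replicate 2 (orange squares); filled symbols have an adjusted p under 0.05. The intervals narrow when that library is left out, PSAE2 and PSAG then lie above 0 at 0.16 and 0.24, and PSAD1, PSAD2, PSAE1 and PSAL stay below 0 in both.

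The balance within a pair uses counts of 1 library only and is free of the scaling between libraries. PSAD1 made up 58.9%, 61.6% and 59.6% of the PSAD counts in the wild type and 57.3%, 56.1% and 56.9% in amiR1-3-mterf2. Each share has an exact binomial 95% interval of less than 1 percentage point on either side, which covers counting error only. PSAD1 was the larger copy in all 6 libraries, also per kb of exon, where its ratio to PSAD2 was 1.21, 1.35 and 1.25 in the wild type and 1.13, 1.08 and 1.11 in the line. The log2 ratio of PSAD1 to PSAD2 was 0.59 ± 0.08 (SD, n = 3) in the wild type and 0.39 ± 0.03 (SD, n = 3) in the line. The difference of -0.19 separated all libraries (two-sided exact permutation test, p = 0.1, the smallest that 3 libraries against 3 allow) and was -0.15 without Col-0 replicate 2. Both PSAD genes summed to 1440 ± 182 CPM (SD, n = 3) in the wild type against 1003 ± 35.0 CPM (SD, n = 3) in the line, again without overlap (two-sided exact permutation test, p = 0.1).

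In the PSAE pair PSAE1 took a smaller share of the counts in every amiR1-3-mterf2 library than in any Col-0 library. PSAE1 made up 50.7%, 61.8% and 51.7% of the PSAE counts in the wild type and 38.9%, 42.1% and 41.9% in amiR1-3-mterf2. The exact binomial 95% interval was 49.7% to 51.7% in Col-0 replicate 1, which includes an even split, and did not reach 50% in any other library. These shares are not corrected for length, and PSAE1 has 798 annotated exon bases against 607 for PSAE2. Per kb of exon, the ratio of PSAE1 to PSAE2 was 0.783, 1.23 and 0.815 in the wild type and 0.485, 0.553 and 0.549 in the line, so that PSAE2 was the larger copy in every library but Col-0 replicate 2. The log2 ratio of PSAE1 to PSAE2 was 0.28 ± 0.36 (SD, n = 3) in the wild type and -0.53 ± 0.11 (SD, n = 3) in the line, a difference of -0.81 (two-sided exact permutation test, p = 0.1, the smallest possible), and without Col-0 replicate 2 the difference was -0.60. Together the copies summed to 441 ± 56.8 CPM (SD, n = 3) in the wild type and 437 ± 9.0 CPM (SD, n = 3) in the line, a difference within the spread (log2 difference -0.0042, two-sided exact permutation test, p = 1). That sum was 469 and 479 CPM in Col-0 replicates 1 and 3, 376 CPM in Col-0 replicate 2, and 442, 427 and 443 CPM in the line. When Col-0 replicate 2 was left out, the line lay below the wild type with no overlap, by a log2 difference of -0.12 (two-sided exact permutation test, p = 0.1, the smallest possible), and with total counts in place of TMM and all libraries the difference was -0.16. PSAE1 overlaps AT4G28740 by 9 bp and AT4G28755 by 436 bp, and PSAE2 overlaps AT2G20270 by 63 bp, all on the opposite strand. The counts of these genes were at most 6.85%, 0.102% and 5.74% of those of the overlapped copy in any library. Whether strand was used in counting is not given in the sources used here.

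PSAH1 and PSAH2 were compared after their values had been seen. PSAH2 had 241, 256 and 267 CPM in Col-0 and 177, 187 and 179.8 CPM in amiR1-3-mterf2. It fell by 0.49 on the log2 scale (adjusted p = 0.00242, edgeR quasi-likelihood, Benjamini-Hochberg). PSAH1 made up 42.5%, 44.9% and 40.4% of the PSAH counts in the wild type and 49.2%, 47.2% and 49.7% in amiR1-3-mterf2. PSAH1 has 1300 annotated exon bases against 702 for PSAH2, and per kb of exon its ratio to PSAH2 was 0.399, 0.440 and 0.366 in the wild type and 0.523, 0.483 and 0.533 in the line, so that PSAH2 was the larger copy in all 6 libraries. The log2 ratio of PSAH1 to PSAH2 differed by 0.36 between the genotypes (two-sided exact permutation test, p = 0.1) and by 0.43 without Col-0 replicate 2.

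**Figure D3:**
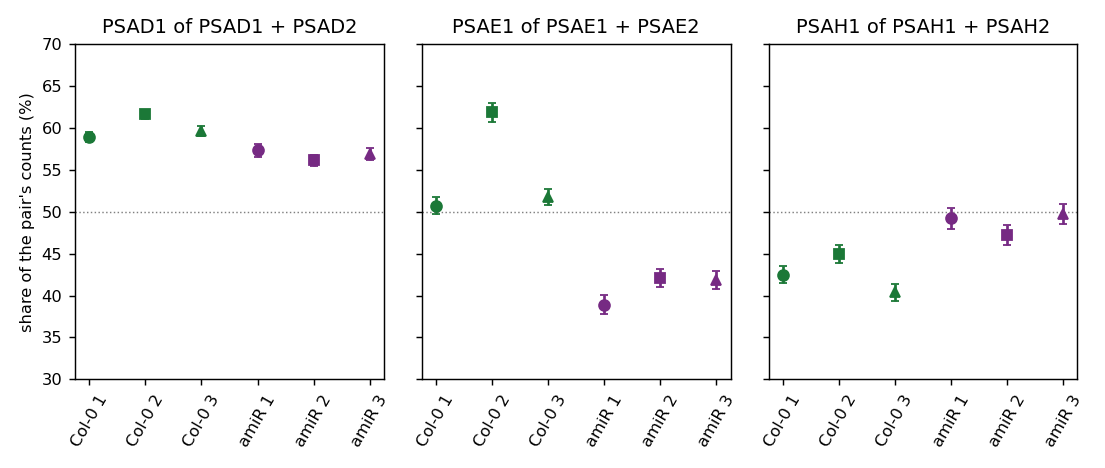
Share of the first copy in the counts of each pair, in percent, for each library (green Col-0, purple amiR1-3-mterf2), with exact binomial 95% intervals that cover counting error only; the axis runs from 30% to 70% and the dotted line marks an even split of counts, with no correction for length. PSAE1 lies at 50.7% or above in Col-0 and at 42.1% or below in amiR1-3-mterf2, and the genotypes do not overlap in any of the 3 pairs.

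The level per length of exon ordered the subunits and showed how the balance of the set differed between genotypes. In Col-0, mean CPM per kb of annotated exon was 1069.6 for PSAL, 764 for PSAD1, 752 for PSAK, 743 for PSAN, 599.9 for PSAD2, 582 for PSAF, 333 for PSAE2, 299.9 for PSAE1, 165 for PSAG and 146 for PSAH1. PSAL stood above its neighbour in every library, whereas PSAD1, PSAK, PSAN and PSAD2 each overlapped with the next gene in this order, as did PSAE2 with PSAE1 and PSAG with PSAH1. In amiR1-3-mterf2 the order from the top was PSAL at 890.5, PSAK at 789.8, PSAN at 767, PSAF at 569, PSAD1 at 502, PSAD2 at 454, PSAE2 at 425, PSAE1 at 225, PSAG at 182 and PSAH1 at 132 CPM per kb. By these means PSAD1 was in the second place in Col-0 and the fifth in the line. The second place rested on Col-0 replicate 2, with 893 CPM per kb for PSAD1, 669 for PSAK and 598 for PSAN. In Col-0 replicates 1 and 3, PSAD1 had 673 and 726, below PSAK (768 and 819) and PSAN (825 and 805). In the line PSAD2 and PSAE2 were the only neighbours among the 10 that overlapped. The highest mean level was 7.35 times the lowest in Col-0 and 6.72 times in amiR1-3-mterf2. PSAH1 has 1300 annotated exon bases for 438 coding bases, so that its level per length depends on the annotated ends.

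The summed level of the 10 genes was 5355, 5474 and 5528 CPM in Col-0 and 4799, 4829.6 and 4900.1 CPM in amiR1-3-mterf2. The sum was 11.2% lower in the line, without overlap (log2 difference -0.17, two-sided exact permutation test, p = 0.1, the smallest possible). With total counts in place of TMM the log2 difference of the sum was -0.32, and with TMM from nuclear genes it was -0.15. Of the counts on the 10 genes, PSAD1 took 14.2%, 18.5% and 14.9% in the wild type and 11.6%, 12.1% and 11.6% in amiR1-3-mterf2, the largest difference in share. The share of PSAF was 12.8% ± 0.551 (SD, n = 3) in Col-0 against 14.1% ± 0.320 (SD, n = 3), and that of PSAE2 was 3.71% ± 0.942 (SD, n = 3) against 5.33% ± 0.261 (SD, n = 3), in both cases without overlap. Shares within the set are tied to each other, so that a smaller share of PSAD1 raises the others.

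The members did not follow a common course over the libraries. Over the 6 libraries, Pearson's r of a gene's log2 CPM with the mean of the other 9 genes was 0.96 for PSAE1, 0.88 for PSAL and 0.71 for PSAD2, but -0.76 for PSAE2 and -0.63 for PSAG, and these 6 points share only 2 genotypes and include Col-0 replicate 2. In that library PSAD1, PSAG, PSAH1 and PSAD2 were higher than the mean of the other Col-0 libraries by 0.35, 0.28, 0.22 and 0.21 on the log2 scale, whereas PSAE2 was at -0.69, PSAN at -0.45 and PSAK at -0.25. The genes outside the set with the highest r with the mean of all 10 were AT2G32390 (GLR3.5, a glutamate receptor-like gene) at 0.9955, AT2G26355, AT1G79970, AT1G50440 and AT1G02130 at 0.9939, among 407 genes with r above 0.95, so that this likeness singles out no gene.

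The genes lie on all 5 nuclear chromosomes. PSAD1 (chr4:1229031-1230164), PSAD2 (chr1:753307-754262) and PSAG (chr1:20802670-20803449) are on the minus strand and have no intron. PSAF (chr1:11214676-11216141, minus strand) and PSAL (chr4:7521257-7522761, plus strand) have 1 intron, and PSAE1 (chr4:14202758-14204061, minus), PSAE2 (chr2:8736734-8737767, plus), PSAH1 (chr3:5467987-5469594, minus), PSAK (chr1:10722183-10723247, plus) and PSAN (chr5:25628521-25629708, minus) have 2, all in TAIR10.1. In the 250 bases before the annotated start, the G-box CACGTG was found in 1 of the 10 genes (6.49% of 27443 promoters of the same length), the I-box core GATAAG in 3 (12.3%), CCAATC, a site bound by GLK factors, in 0 (10.2%), the TATA box TATAAA in 4 (47.3%) and the telo-box core AAACCCT in 1 (7.33%), with both strands searched. The single G-box was that of PSAE2, 63 bases before the start, and PSAE1 held none. Outside the 10, PSAH2, which was lower in the line, held G-boxes 67 and 12 bases before the start, and PSAH1 held none. A link between motifs and levels was not tested. I-box cores lay 66 bases before the start of PSAF, 67 bases before that of PSAK (on the other strand) and 181 bases before that of PSAD1. These are matches of letters and not sites of binding. The last 100 bases before the start are shown for PSAE2, with its G-box in capitals (chr2:8736634-8736733, plus strand), and for PSAF (chr1:11216142-11216241, minus strand) and PSAK (chr1:10722083-10722182, plus strand), with their I-box cores in capitals, from TAIR10.1.
PSAE2: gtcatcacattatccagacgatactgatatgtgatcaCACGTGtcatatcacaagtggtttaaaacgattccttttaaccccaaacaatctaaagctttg
PSAF: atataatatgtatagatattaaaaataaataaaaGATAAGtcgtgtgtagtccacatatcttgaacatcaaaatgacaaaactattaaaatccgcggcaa
PSAK: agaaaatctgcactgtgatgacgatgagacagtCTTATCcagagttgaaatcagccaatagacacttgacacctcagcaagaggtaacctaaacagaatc

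The remaining genes of the complex and its partners, 28 in all, were set beside the 10. Of these, 11 were higher and 4 lower in amiR1-3-mterf2 (edgeR quasi-likelihood, Benjamini-Hochberg), beside 18.1% and 18.2% of all genes tested. Without Col-0 replicate 2 the counts were 13 and 4, beside 22.1% and 20.8% of all genes tested. The higher genes include psaA, psaB, psaC, psaI, ycf3 and ycf4, which are encoded in the plastid. Both further nuclear subunits, PSAH2 and PSAO (AT1G08380, a subunit that takes part in docking light-harvesting complex II), were lower. PSAO had 416, 364 and 406 CPM in Col-0 and 316, 328 and 328 CPM in amiR1-3-mterf2, with a log2 fold change of -0.29 (adjusted p = 0.0413, edgeR quasi-likelihood, Benjamini-Hochberg), and 8 of 13 alternatives lost this call.

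Of the 5 plastid subunit genes, 4 rose and 1 fell. The study reports that many plastid-encoded transcripts rose in this line, so that rises were not particular to photosystem I genes. The log2 fold change was 0.93 for psaA and 0.92 for psaB, which encode the reaction-centre heterodimer, 1.04 for psaC, the subunit that carries the terminal iron-sulfur clusters and is held by PsaD, and 0.35 for psaI. In contrast, psaJ, which lies next to PsaF in the complex, had -0.68. Of the 6 antenna genes LHCA1 to LHCA6, 1 rose, LHCA4, at 2748, 2744 and 2768 CPM in Col-0 against 3801, 3813 and 3921 CPM in amiR1-3-mterf2, and the other 5 did not pass. Of 9 assembly factors, 4 rose, namely plastid ycf3 (log2 fold change 1.32) and ycf4 (1.28), PYG7 (0.45) and PSA2 (0.52), and none of the other 5 passed. Counts over exons do not separate spliced from unspliced ycf3 RNA. RNA gel blots in the study showed more unspliced ycf3 precursor and no mature ycf3 transcript in the knockdown lines. Which form made up the rise in these counts was not tested. Among 6 electron partners, the ferredoxin gene FD1 fell (-0.59) and FD2, for the main leaf ferredoxin, rose (0.48), as did LFNR2 (0.42), which encodes a ferredoxin-NADP reductase, while PETE1 (0.34) and PETE2 (0.30), for plastocyanin, did not pass with all libraries and passed without Col-0 replicate 2. Of these calls, those of psaI, PYG7, PSA2, LFNR2 and FD1 were lost in 3, 1, 2, 4 and 1 of the 13 alternatives. Without Col-0 replicate 2, FD1 was at -0.40, LFNR2 at 0.27 and FD2 at 0.54, each still called.

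**Figure D4:**
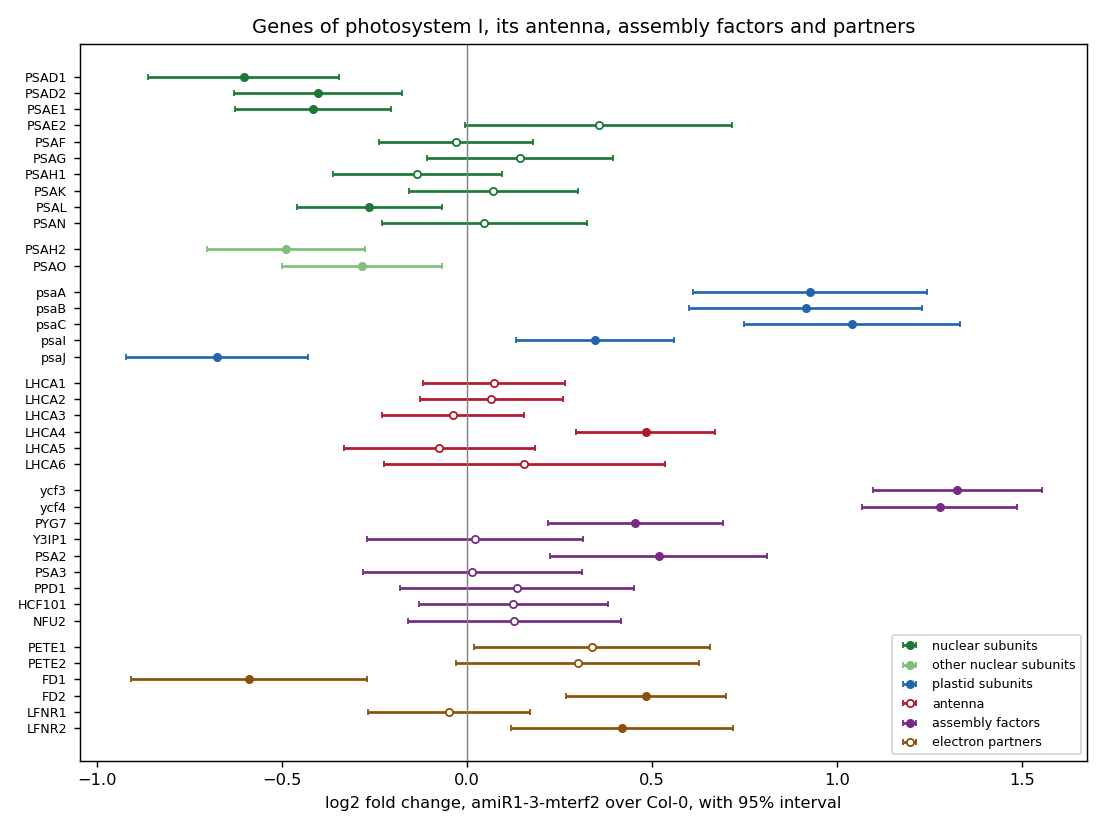
Log2 fold change of amiR1-3-mterf2 over Col-0 with its 95% interval for the 10 genes (top), other nuclear subunits, plastid subunits, antenna, assembly factors and electron partners; filled symbols have an adjusted p under 0.05. The plastid genes psaA, psaB, psaC, ycf3 and ycf4 lie at 0.915 or above, psaI at 0.345 and psaJ at -0.677. The highest nuclear subunit gene is PSAE2, at 0.355.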

How the data were processed

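RNA-Seq libraries of Col-0 and amiR1-3-mterf2 seedlings, 3 each, were grouped by their titles. The study describes rRNA depletion, paired-end sequencing and independent biological replicates. The deposited values are raw counts per gene, summed by the authors over exons without normalization. The file headers name HISAT2, whereas the submitters' processing notes list Trimmomatic, FastQC, TopHat2 2.1.1, featureCounts and TAIR10. The settings for strand, read pairs and reads with several matches are not given in the sources used here. Reads shared by similar or overlapping genes are therefore uncertain.

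Genes were filtered with filterByExpr (minimum count 10, minimum total 15), scaled by TMM and compared with edgeR 4.0.16 in R 4.3.3, by its quasi-likelihood test at a threshold of 0.05 on p-values adjusted after Benjamini and Hochberg across the 17902 genes kept. Standard errors (SE) were obtained as the log2 fold change over the root of the F statistic. For ratios within a pair and for sums, exact two-sided permutation tests were used. DESeq2 1.42.0 was an alternative. Identifiers were matched to TAIR10.1 (36639 of 36917 by locus tag), and sequences were read from that genome with Python 3.11.15 and Biopython 1.88. Every value named rests on the counts of the libraries, the smallest of which for a member was 2274, and p-values and intervals from counts cover these libraries only.

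The members and the gene lists were chosen with earlier results of these data known. The genes named were the members, all genes of the lists on photosystem I, MTERF2, and the 5 genes whose course over the libraries was most like the members' mean; the PSAH pair was added later. Alternatives were DESeq2 size factors, total counts, TMM from nuclear genes, the DESeq2 Wald test, no filter, a minimum of 10 counts in each library, a block for the replicate number, and each library left out. On simulated counts with 200 genes changed 2-fold for this comparison, edgeR recovered 70.5% of them among 17614 genes with 3.42% false calls, and DESeq2 67.5% among 17902 with 5.59%. No simulated library stood apart as Col-0 replicate 2 did, and the members changed by less than 2-fold. These rates therefore do not describe the calls on members.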

Additional observations from a re-analysis of the deposited data

How the results depend on the processing

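Of 130 member estimates under 13 alternatives, 112 kept direction and side of the threshold, 10 lost the call, 2 gained it and 6 turned sign. With total counts in place of TMM, the log2 fold change over all genes had a median of -0.17 in place of -0.02 (-0.12 with the DESeq2 Wald test), 2129 genes were higher in place of 3248, the members' median was -0.23, the higher genes among the 28 others were 7, and the estimates turned to -0.0056 for PSAG, -0.090 for PSAK, -0.12 for PSAN, -0.083 for LHCA1, -0.091 for LHCA2, -0.14 for Y3IP1, -0.15 for PSA3, -0.020 for PPD1, -0.026 for HCF101 and -0.036 for NFU2. Scaling by total counts leaves out the TMM factors, which were 1.10, 0.97 and 1.09 for wild-type replicates 1 to 3, against 0.95, 0.94 and 0.96 for the line. Which scaling lies nearer to the true levels was not tested. Requiring 10 counts in every library turned Y3IP1 (-0.0093) and PSA3 (-0.017). Leaving out 1 library gave 0 to 2 higher and 2 to 4 lower members, a members' median of -0.12 to -0.06, 9 to 13 higher and 2 to 4 lower genes among the 28 others, and 2479 to 4046 higher and 2488 to 3803 lower genes over all. Without Col-0 replicate 2, the signs of PSAF, PSAK, PSAN, Y3IP1 and PSA3 turned, and without amiR1-3-mterf2 replicate 2 those of Y3IP1 and PSA3. Over all libraries left out in turn, PSAF ran from -0.065 to 0.0097, PSAK from -0.0032 to 0.14, PSAN from -0.085 to 0.13, Y3IP1 from -0.089 to 0.12 and PSA3 from -0.068 to 0.11. The cause of these turns was not tested.

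Deviations of same-numbered libraries from their genotype means had correlations over genes of 0.04, 0.03 and -0.02. Col-0 replicate 2 weighs on the Col-0 mean and so on each Col-0 deviation. These values therefore cannot show whether the numbers mark pairs. With the replicate number as a block, 3 members were lower and 0 higher, PSAL being lost (adjusted p = 0.0813, edgeR quasi-likelihood, Benjamini-Hochberg), and 3146 genes were higher and 3126 lower. The paired differences in log2 ratio were -0.19, -0.81 and 0.36 for the PSAD, PSAE and PSAH pairs and -0.17 for the summed level, where 0.25 is the smallest exact p that 3 pairs allow. Leaving out 1 library gave -0.23 to -0.15, -0.92 to -0.60, 0.29 to 0.43 and -0.18 to -0.16.

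For the summed level of each pair, alternatives were chosen after seeing the data. The PSAE sum turned to 0.019 with TMM from nuclear genes and ran from -0.12 without Col-0 replicate 2 to 0.059 without Col-0 replicate 3, whereas the PSAD and PSAH sums were lower in the line under each scaling and with each library left out.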
